A study of Mus musculus with 2 samples.

Results

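RAB genes encode the largest branch of the RAS-like small GTPases, and their transcripts were described here across the leukocyte types of pressure-overloaded mouse hearts. Rows of the gene table were taken when the symbol was Rab followed by a digit and optional further letters or digits, leaving out names of interacting proteins, exchange factors, activating proteins and pseudogenes. This rule found 62 of 31192 genes. Of these, 59 are RAB GTPase genes and 3 are not: Rab10os and Rab26os are transcripts from the opposite strand of a RAB gene, and Rab3il1 encodes an exchange factor. The sources used here do not say whether counting used strand, so reads of Rab10 and Rab10os, or of Rab26 and Rab26os, cannot be told apart with certainty.

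The cells came from hearts of Cdh5-CreERT2;REFLEX mice that had been given tamoxifen and then operated for transverse aortic constriction (TAC), a banding of the aorta that overloads the left ventricle. Cdh5 encodes VE-cadherin, so the Cre is driven in endothelial cells, and REFLEX is a reporter that marks interacting cells with GFP. GFP-positive and GFP-negative cells of the CD45-positive and CD45-negative gates, 4 sorted fractions in all, were pooled into 1 transcriptome library with 1 matching hashtag library. All cells share the genotype, tamoxifen and the operation, there is no group of unoperated mice among them, and the sources used here give neither the number or age of the mice nor the time after TAC. The sources do not tie a hashtag to a fraction, so values are given by cell type and GFP status is not compared. No p-value is given, since cells of 1 library are not replicates.

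RAB proteins switch between a GTP-bound form that recruits effectors to a membrane and a GDP-bound form that is extracted from it, and different family members mark different compartments of the secretory and endocytic routes. Exchange factors load GTP, GTPase-activating proteins end the signal, and prenylation, escort proteins and GDP dissociation inhibitors govern membrane attachment. In phagocytes, RAB5 proteins mark the early phagosome and RAB7 the late one before it meets lysosomes, while RAB27 proteins dock granules in neutrophils and cytotoxic lymphocytes.

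Of 878 cells, 857 passed the filters, with 28407 to 706332 counts each and a median of 77839. All 878 barcodes were also in the hashtag file. Clustering without RAB genes and without the genes of the RAB pathway lists gave 10 clusters, which marker genes grouped into 274 neutrophil-like, 182 monocyte-like, 160 B cell-like, 103 T cell-like, 52 macrophage-like, 31 conventional dendritic-like and 27 NK cell-like cells, with 28 cells left unnamed. No cluster took the name of an endothelial cell, fibroblast or cardiomyocyte, although the labels list CD45-negative cells: the 10 blood vascular endothelial markers summed to 35.4 to 155 CPM, the share of a class's counts scaled to 1000000, in the classes and the 8 cardiomyocyte markers to 18.8 to 138 CPM. Median counts per cell ran from 54292 in the unnamed cells and 64370 in neutrophil-like cells to 249799 in macrophage-like cells and 256566 in conventional dendritic-like cells. S100a8, a neutrophil granule and cytosol protein gene at 44490 CPM in neutrophil-like cells, stood at 0.196% to 1.12% of that level in every other class, yet at least 98.1% of the cells of each class had a count of it, and at least 74.1% after thinning to 25000 counts per cell. Whether RNA of other cells adds to the share of cells with a RAB count was not tested, and RAB levels were far below that of S100a8. Shares are therefore given below with the same measure in classes where the gene was low, or for Rab44 in a class where it was lower.

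A level is a gene's summed count in a class relative to all counts of that class, in CPM, with an exact 95% Poisson interval that covers counting error only. Cells were also grouped by the hashtag name that the authors gave them (A951, A952, A953 or A965), and the levels in the cells of each name, where a class had at least 10 such cells, are given as the spread. These names are not replicates, and the highest hashtag count matched the name in 331 of 331 cells named A951 and 128 of 134 named A952, but in only 14 of 114 named A953 and 17 of 247 named A965. Levels of different genes are not compared with each other, since transcript length was not taken into account.

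For genes with at least 10 CPM over all kept cells, the level in a class was set against that in all other cells on a log2 scale after adding 1 CPM, and a difference of at least 2-fold was called. This left 7658 genes, among them 36 of the 62 RAB genes (34 of the 59 GTPase genes). A gene that passed this filter only through the class where it is high had to differ, so the counts below describe and are not support. Among the RAB genes called higher, this holds for Rab37 and Rab44 in neutrophil-like cells. It also holds for Rab30 in B cell-like and Rab3il1 in macrophage-like cells. In neutrophil-like cells 10 of the 36 were higher and 6 lower, 27.8% and 16.7%, while of all genes tested 10.6% were higher and 40.0% lower. In monocyte-like cells 1 was higher and 2 lower, against 5.48% and 13.9% of all genes. In macrophage-like cells 3 were higher and 5 lower, against 6.97% and 16.2%. In B cell-like cells 2 were higher and 13 lower, against 16.7% and 22.4%, and in T cell-like cells 2 were higher and 12 lower, against 13% and 23.5%. Leaving out the cells named A965, or the 1 cell with the largest count of a gene, gave 1 higher in T cell-like cells, and leaving out the cells named A951 or A965 gave 1 lower in monocyte-like cells. The shares of all genes were not computed for these settings. The median log2 ratio of the 36 was 0.22 in neutrophil-like cells, where that of all genes was -0.63, and it was -0.50 in B cell-like and -0.55 in T cell-like cells, where those of all genes were 0.07 and -0.04. Summed over the 59 GTPase genes, the level was 3742 CPM in neutrophil-like cells against 2444 CPM in all other cells, 3038 against 2632 CPM for macrophage-like cells, 2673 against 2697 CPM for monocyte-like cells, 1791 against 2804 CPM for B cell-like cells and 1826 against 2789 CPM for T cell-like cells. Because each class is part of the other cells of the next, these comparisons share cells.

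**Figure D1:**
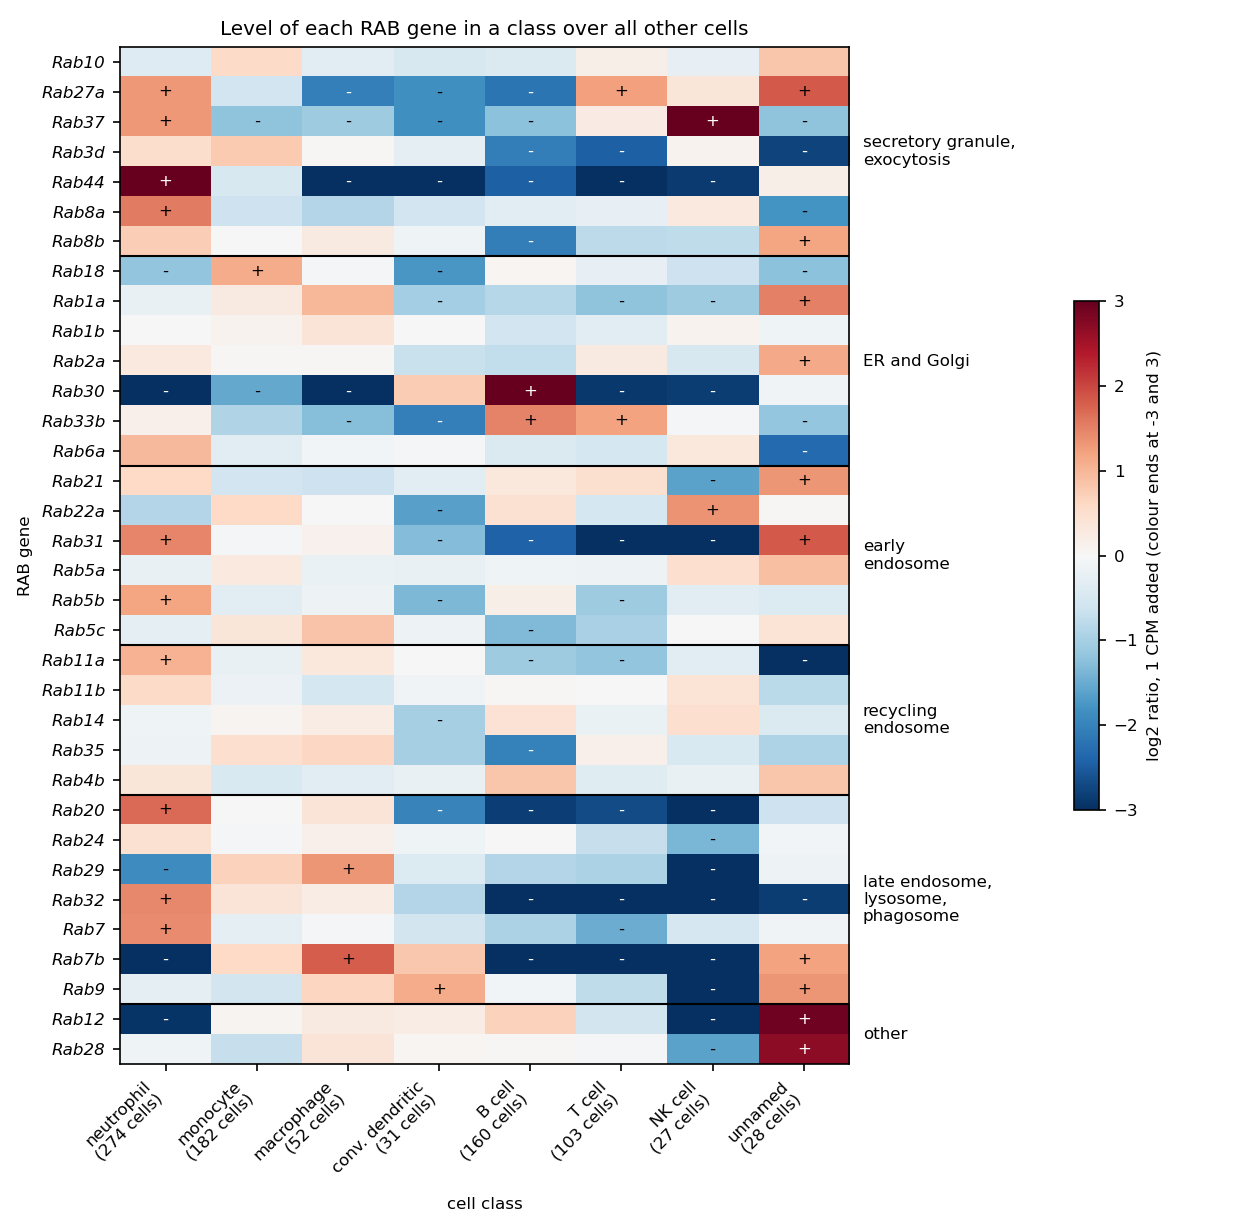
Log2 ratio of the level in a class over all other cells (colour, 1 CPM added, ends at -3 and 3) for the 34 RAB GTPase genes tested, in rows by role, and 8 cell classes in columns with their cell numbers. Plus and minus signs mark ratios of at least 2-fold, in the 3 classes of fewer than 50 cells too. The neutrophil column holds plus signs in the granule, endosome and phagosome rows, and minus signs for Rab7b, Rab12, Rab18, Rab29 and Rab30. The signs in the B cell and T cell columns are mostly minus, and many of their rows hold no sign.

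Among the late endosomal, lysosomal and phagosomal genes, Rab7, Rab20 and Rab32 were at least 2-fold higher in neutrophil-like cells, Rab7b and Rab29 at least 2-fold lower there and at least 2-fold higher in macrophage-like cells, and of the 7 genes of this role that were tested 3 were lower in B cell-like and 4 in T cell-like cells. Of all genes tested, 10.6% were higher and 40.0% lower in neutrophil-like cells, and 6.97% were higher in macrophage-like cells. The shares lower were 22.4% in B cell-like and 23.5% in T cell-like cells. None of the 7 was called in monocyte-like cells, where 5.48% of all genes were higher and 13.9% lower.

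Rab7 encodes the GTPase that drives fusion of late endosomes and phagosomes with lysosomes. Its level was 563 CPM in neutrophil-like cells (interval 553 to 574) against 209.6 CPM in all other cells, a ratio of 2.69 (2.62 to 2.75). Neutrophil-like cells named A951, A952, A953 and A965 had 536, 537, 698 and 685 CPM, and the highest value of any hashtag name in another class was 287 CPM, in macrophage-like cells. The neutrophil-like values thus all lay above those of monocyte-like (241 CPM), macrophage-like (265 CPM), B cell-like (151 CPM) and T cell-like cells (106 CPM). T cell-like cells had the lowest level of the 5 classes of at least 50 cells, and their values by name were wide: 37.7, 175 and 93.2 CPM in cells named A951, A953 and A965. Of the counts of Rab7, 43.5% stood in fractional values, so its level is less certain than those of genes with whole counts.

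Rab20 encodes a GTPase of phagosomes that takes part in their maturation in macrophages. It had 354 CPM in neutrophil-like cells (346 to 363) against 109 CPM in all other cells, a ratio of 3.25 (3.15 to 3.35). By name, the neutrophil-like cells had 376, 282, 582 and 258 CPM, macrophage-like cells named A951 and A952 had 255 and 182 CPM, and monocyte-like cells had 141 to 178 CPM. The lowest neutrophil-like value was barely above the highest macrophage-like one. B cell-like and T cell-like cells lay far below, at 23.3 CPM (0.135 of the level in all other cells, 0.119 to 0.153) and 25.8 CPM (0.151, 0.134 to 0.171), and so did NK cell-like cells at 8.17 CPM.

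Rab32 acts on lysosome-related organelles and, in macrophages, in the restriction of intracellular bacteria. Its level was 201 CPM in neutrophil-like cells (195 to 208) against 73.4 CPM in all other cells, a ratio of 2.74 (2.63 to 2.86), with 212, 207, 258 and 190.3 CPM by name. Monocyte-like cells had 116 CPM and macrophage-like cells 111 CPM, and their values by name, 81.2 to 129 CPM and 96.4 to 125 CPM, overlapped. In B cell-like cells the level was 2.55 CPM (1.71 to 3.66), which is 0.0232 of that in all other cells (0.0155 to 0.0334), and 1 cell held 65.5% of those counts. The log2 ratio there was -4.96, and it was -5.88 without that cell and -5.77 without the cells named A965. Rab32 was thus near 0 in B cell-like cells, and T cell-like cells had 6.34 CPM.

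Rab7b, a relative of Rab7 placed on late endosomes and the trans-Golgi network in work on the human protein, ran the other way among phagocytes. It had 325 CPM in macrophage-like cells (316 to 334) against 92.2 CPM in all other cells, a ratio of 3.52 (3.40 to 3.65), and 341 and 316 CPM in those named A951 and A952. Conventional dendritic-like cells had 205 CPM and monocyte-like cells 162 CPM, with 86.2 to 184 CPM by name in the monocyte-like cells. Neutrophil-like cells had 11.6 CPM, B cell-like cells 5.27 CPM and T cell-like cells 0.622 CPM. The order macrophage-like, monocyte-like, neutrophil-like held in intervals and in the values by name, and T cell-like cells were 0.00446 of the level in all other cells (0.00172 to 0.00943), with 7 of 103 cells carrying any count. Unnamed cells had 284 CPM, between the monocyte-like and macrophage-like levels. Macrophage-like cells also held monocyte markers, 4624 CPM summed with 8 of 14 at 50 CPM or more, against 16387 CPM in monocyte-like cells. Macrophage markers summed to 1185 CPM in monocyte-like cells, with 4 of 14. The part of these markers in the levels of both classes was not tested.

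Of the other genes of this role, Rab29, whose protein recruits the kinase LRRK2 to membranes, had 49.5 CPM in macrophage-like cells against 19.0 CPM in all other cells (2.60-fold), but its values of 64.0 and 31.1 CPM by name overlapped those of monocyte-like cells, and it was lower in neutrophil-like cells at 6.59 against 27.2 CPM. Rab24, linked to autophagy, had 37.3 to 75.3 CPM and Rab9, which returns receptors from late endosomes to the Golgi, 20.1 to 48.1 CPM in the 5 classes, with no call. NK cell-like cells had no count of Rab9 or Rab29 in 27 cells, with an interval that reaches 1.88 CPM. Rab34, Rab38, Rab42 and Rab9b did not reach 3 CPM in any of the 5 classes.

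**Figure D2:**
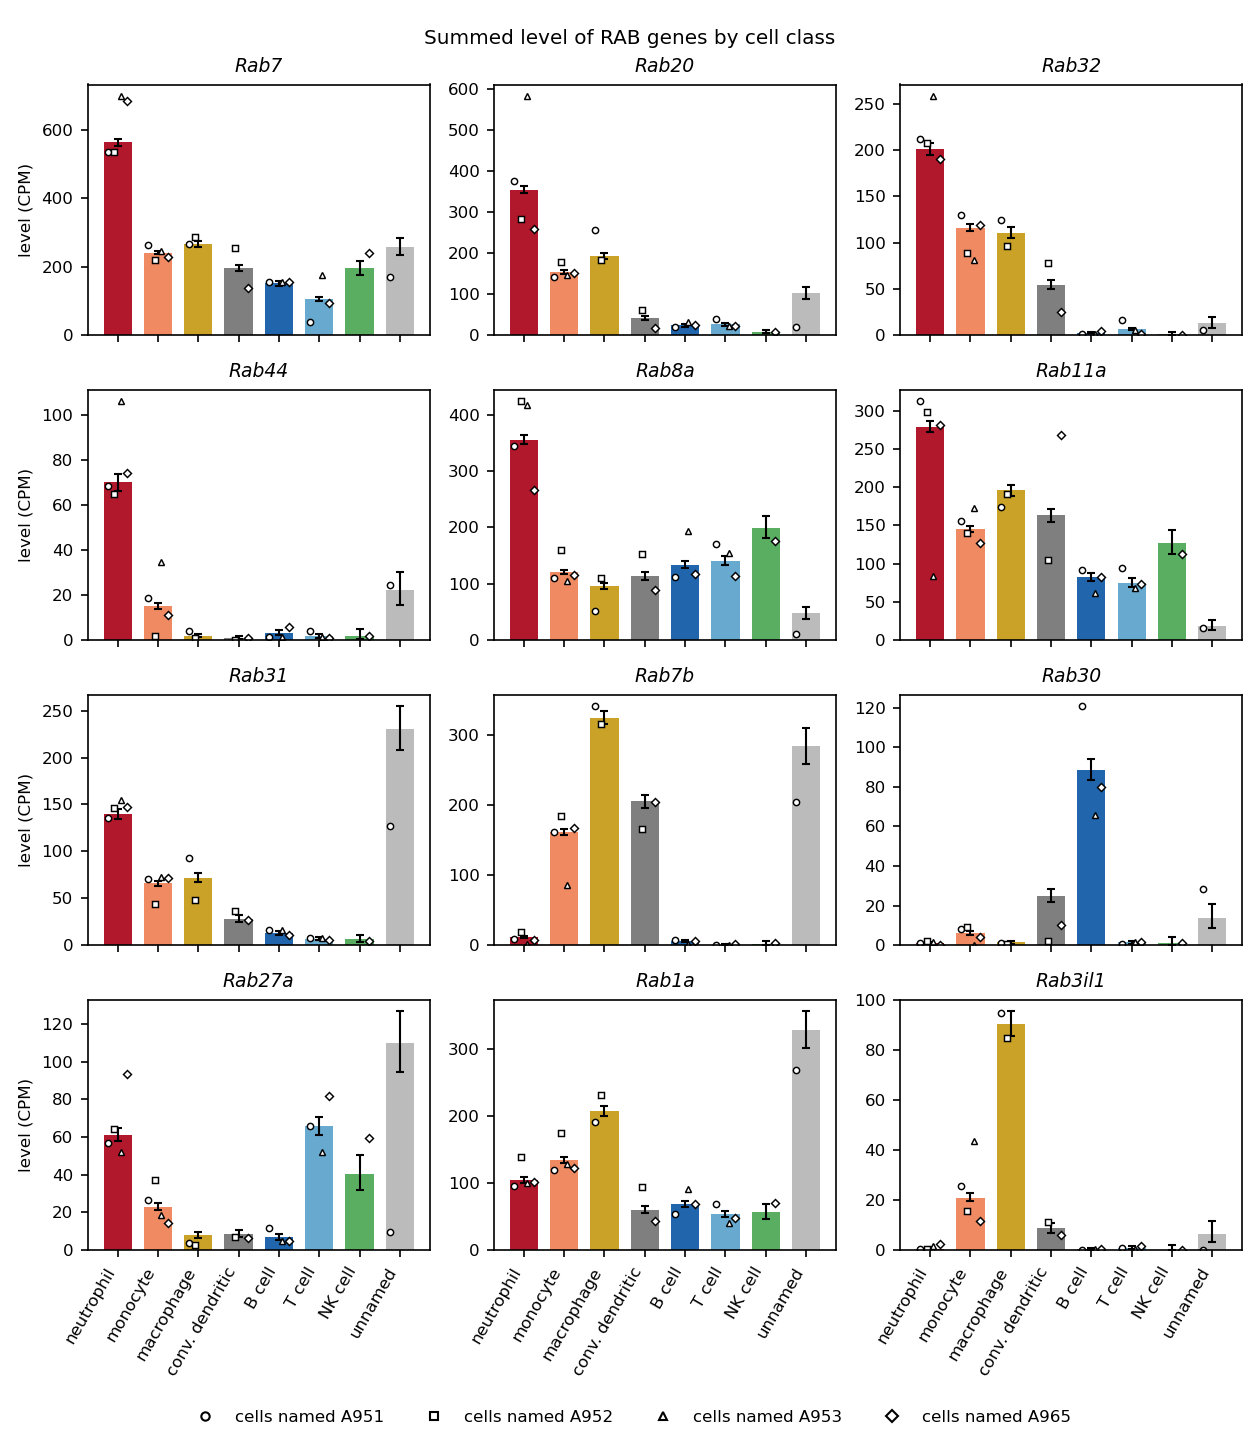
Level in CPM (bars, with 95% Poisson intervals) of 11 RAB GTPase genes and Rab3il1 in 8 cell classes, with open symbols for the cells of each hashtag name where a class held at least 10. Rab7, Rab20, Rab32, Rab44, Rab8a and Rab31 have their highest bar among the 7 named classes in neutrophil-like cells, Rab7b and Rab3il1 in macrophage-like cells and Rab30 in B cell-like cells; the bar of Rab27a in unnamed cells rests on 1 cell with 92.5% of the counts.

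Of the 7 genes of secretory granules and exocytosis that were tested, 4 were higher in neutrophil-like cells (Rab27a, Rab37, Rab44 and Rab8a) and none lower, where 10.6% of all genes were higher and 40.0% lower. In B cell-like cells 5 of the 7 were lower (22.4% of all genes), and in macrophage-like cells 3 (16.2%). Summed over the 14 genes of this role, the level was 831 CPM in neutrophil-like cells against 414 CPM in all other cells, and 268 CPM in B cell-like cells against 521 CPM.

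Rab44 encodes a large RAB with calcium-binding EF-hand motifs that has been studied in mouse mast cell degranulation. It had 70.2 CPM in neutrophil-like cells (66.5 to 74.1) against 7.76 CPM in all other cells, a ratio of 9.05 (8.23 to 9.97), and 68.5, 65.1, 106 and 74.4 CPM by name. Monocyte-like cells had 15.2 CPM, with 1.76 to 34.9 CPM by name. The macrophage-like, B cell-like and T cell-like levels were 1.93, 3.14 and 1.80 CPM, and in each of these 3 classes 1 cell held at least 47.8% of the counts. All neutrophil-like values by name lay above those of the other 4 classes.

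Rab8a encodes a GTPase that carries vesicles from the Golgi and recycling compartments to the surface. Its level was 356 CPM in neutrophil-like cells (347 to 364) against 120.2 CPM in all other cells, a ratio of 2.96 (2.87 to 3.05), and 345, 423, 417 and 266 CPM by name. The other 4 classes had 95.9 to 141 CPM. Its paralog Rab8b had 209.5 CPM in neutrophil-like cells against 124 CPM in all other cells (1.68-fold, not called) and 36.0 CPM in B cell-like cells against 154 CPM (0.234, 0.212 to 0.258), with 17.9 to 52.8 CPM by name in B cell-like cells. The log2 ratio of Rab8b there was -2.06, and -2.66 without the cells named A965. The paralogs therefore differed in B cell-like cells, where Rab8a at 134 CPM was 0.795 of its level in all other cells.

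Rab27a docks granules at the plasma membrane, and its loss in humans causes Griscelli syndrome, with failing cytotoxic lymphocytes. Its level was 65.7 CPM in T cell-like cells (60.8 to 70.8) against 27.2 CPM in all other cells, a ratio of 2.42 (2.22 to 2.63), and 61.1 CPM in neutrophil-like cells (57.6 to 64.7) against 24.2 CPM, a ratio of 2.52 (2.34 to 2.71). The values by name, 51.8 to 82.0 CPM in T cell-like and 52.2 to 93.6 CPM in neutrophil-like cells, overlapped, so the order of these 2 classes was not settled, while monocyte-like (23.1 CPM), macrophage-like (7.73 CPM) and B cell-like cells (6.72 CPM) were lower. Rab27b, its paralog, had 109.7 CPM in NK cell-like cells (95.5 to 125), on 10 of 27 cells with 44.2% of the counts in 1 cell, and at most 13.9 CPM in the 5 larger classes. In T cell-like cells 82.8% of the Rab27b counts came from 1 cell. The T cell-like class also held NK cell markers, 490.0 CPM summed with 3 of 10 at 50 CPM or more, against 20649 CPM in NK cell-like cells, and their part in these levels was not tested.

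Rab37, placed on secretory granules of mouse mast cells, had 23.9 CPM in neutrophil-like cells against 9.20 CPM in all other cells (2.60-fold), but its values by name were 34.3, 27.2, 0.803 and 7 CPM and overlapped those of other classes. Its highest level was 122 CPM in NK cell-like cells, on 10 of 27 cells. That class also held mast cell markers, 635 CPM summed with 1 of 4 at 50 CPM or more. T cell markers summed to 1475 CPM there, with 3 of 11. The part of these markers in the NK cell-like levels was not tested. Rab3d, of the RAB3 branch of regulated exocytosis, had 14.0 to 19.4 CPM in the 3 larger myeloid classes but 2.81 CPM in B cell-like and 1.94 CPM in T cell-like cells. Rab10, which moves vesicles to the surface, differed less, with 77.9 to 130.2 CPM over the 5 classes and no call. Rab3a, Rab3b, Rab3c, Rab15 and Rab26 stayed under 5 CPM in all 5 classes, and Rab13 reached 5.14 CPM in neutrophil-like cells, with 53.6% of all its counts in 1 cell.

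Of the 6 early endosome genes tested, Rab31 and Rab5b were at least 2-fold higher in neutrophil-like cells and none was lower. Of all genes tested, 10.6% were higher there and 40.0% lower. Rab31, which works between the trans-Golgi network and endosomes, had 140.0 CPM in neutrophil-like cells (135 to 145) against 49.8 CPM in all other cells, a ratio of 2.81 (2.67 to 2.95), with 136 to 154 CPM by name. The highest value of any name in the other 4 classes was 93.2 CPM, in macrophage-like cells. In B cell-like and T cell-like cells the levels were 12.9 and 6.81 CPM, 0.175 and 0.0923 of those in all other cells. Unnamed cells had 231 CPM (208 to 255), above every named class.

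The 3 genes of the RAB5 protein, which governs fusion of early endosomes and young phagosomes, did not share a pattern. Rab5b led in neutrophil-like cells with 58.8 CPM against 25.1 CPM in all other cells (2.34-fold, 2.17 to 2.52), and lowest of the 5 classes in T cell-like cells, at 15.4 CPM. Rab5c was highest in macrophage-like cells, at 182 against 100.1 CPM (1.82-fold, not called), and lowest in B cell-like cells, at 47.2 against 119.8 CPM (0.394, 0.360 to 0.429). Rab5a had 35.7 to 46.8 CPM across the 5 classes with no call, and 70.1% of its counts were in fractional values. Rab21, of integrin traffic, and Rab22a had 17.9 to 36.8 CPM and 15 to 34.0 CPM, also with no call.

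Of the 5 recycling endosome genes tested, only Rab11a was called in neutrophil-like cells, where 10.6% of all genes were higher and 40.0% lower. Its level there was 279 CPM (272 to 287) against 135 CPM in all other cells, a ratio of 2.07 (2.0 to 2.14). Cells named A951, A952 and A965 had 312, 298 and 282 CPM, but the 19 neutrophil-like cells named A953 had 83.6 CPM, within the range of the lymphocyte classes. Rab11a was lower in B cell-like cells, at 81.8 against 173 CPM, and in T cell-like cells, at 75.1 against 172 CPM. With each cell weighted alike, the ratio in T cell-like cells fell short of 2-fold (log2 ratio -0.89).

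Rab11b and Rab14 were among the most even members. Rab11b had 159.8 CPM in neutrophil-like cells against 107 CPM in all other cells (1.49-fold) and 84.5 to 120.0 CPM in the other 4 classes. Rab14, of traffic between Golgi and endosomes, had 244 CPM in B cell-like cells against 179.8 CPM in all other cells (1.36-fold, 1.30 to 1.41) and 165 to 213 CPM in the other 4 classes. Its values by name in B cell-like cells, 214 to 299 CPM, overlapped those of the neutrophil-like, monocyte-like and macrophage-like classes but not the 139 to 186 CPM of T cell-like cells. Rab14 was thus present in lymphocytes and phagocytes with no call in the 5 classes. Rab35 departed in 1 class, with 5.85 CPM in B cell-like cells against 22.6 to 35.5 CPM in the other 4. Rab4a, of fast recycling, did not pass the filter but had 18.5 CPM in T cell-like cells, on 14 of 103 cells, against 1.04 CPM in all other cells.

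Of the 7 genes of the endoplasmic reticulum and Golgi that were tested, 2 were higher and 0 lower in B cell-like cells (16.7% and 22.4% of all genes), and 1 was higher and 2 lower in T cell-like cells (13% and 23.5%). Rab30, a Golgi GTPase, had 88.7 CPM in B cell-like cells (83.3 to 94.4) against 5.62 CPM in all other cells, a ratio of 15.8 (14.2 to 17.6), and 121, 65.8 and 79.9 CPM in those named A951, A953 and A965. The other 4 classes had 1.12 to 6.07 CPM, and no hashtag name in them exceeded 8.94 CPM. The level of 24.7 CPM in conventional dendritic-like cells rested on 1 cell with 82.1% of the counts. B cell-like cells thus stood apart from the other 4 classes in Rab30. The gene passed the 10 CPM filter only through these cells, so it had to be higher there. The B cell-like class also held plasmacytoid dendritic markers, 508 CPM summed with 4 of 7 at 50 CPM or more. Conventional dendritic markers summed to 604 CPM there, with 1 of 11. The part of these markers in this and the other B cell-like levels was not tested.

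Rab33b, a Golgi GTPase with an autophagy partner, was higher in both lymphocyte classes, at 44.9 CPM in B cell-like cells against 15.3 CPM in all other cells (2.93-fold) and 39.0 CPM in T cell-like cells against 16.3 CPM (2.39-fold). Rab1a, which carries cargo from the endoplasmic reticulum to the Golgi, had 207 CPM in macrophage-like cells against 104 CPM in all other cells (1.99-fold, 1.91 to 2.08, under the call) and 54.0 CPM in T cell-like cells against 126 CPM (0.429, called). The lower Rab1a in T cell-like cells was not called with each cell weighted alike (log2 ratio -0.95). Rab6a, of retrograde Golgi transport, had 136 CPM in neutrophil-like cells against 69.1 CPM in all other cells (1.97-fold, under the call), with 122 to 189 CPM by name.

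Rab2a and Rab1b, also of this route, were not called in the 5 classes. Rab2a had 128 CPM in B cell-like cells against 214 CPM in all other cells, and 207 to 243 CPM in the other 4 classes. Rab1b had 62.4 to 112 CPM over the 5 classes. Rab18, found on lipid droplets and the endoplasmic reticulum, had 23.9 CPM in monocyte-like cells against 10.5 CPM in all other cells (2.28-fold), the only higher member in that class, and 62.5% of its counts were in fractional values. Rab19 did not pass the filter but had 52.6 CPM in NK cell-like cells, on 5 of 27 cells, and 33.0 CPM in T cell-like cells, on 15 of 103 cells.

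Outside these roles, Rab12 was lower in neutrophil-like cells, at 1.29 against 16.7 CPM in all other cells, and Rab28 had 11.4 to 21.2 CPM in the 5 classes with no call. Of the 3 rows that are no GTPase genes, Rab3il1, an exchange factor for RAB3A and RAB8 proteins, had 90.2 CPM in macrophage-like cells (85.3 to 95.3) against 9.33 CPM in all other cells, a ratio of 9.67 (8.84 to 10.6), with 94.5 and 84.7 CPM by name. It stood under 1 CPM in neutrophil-like, B cell-like and T cell-like cells. Rab10os had 48.7 to 73.2 CPM and Rab26os 1.36 to 12.3 CPM over the 5 classes.

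The leading class stood apart from the other 4 in both interval and values by name for 15 of the 59 GTPase genes: for 8 it was the neutrophil-like class (Rab5b, Rab6a, Rab7, Rab8a, Rab20, Rab31, Rab32 and Rab44), for 3 the macrophage-like class (Rab1a, Rab7b and Rab3a, the last at 2.12 CPM), for 2 the T cell-like class (Rab4a and Rab19), for 1 the B cell-like class (Rab30) and for 1 the monocyte-like class (Rab36, at 3.90 CPM). The lowest neutrophil-like value by name was barely above the highest of the other classes for some. These were 121.6 against 120.6 CPM for Rab6a, 258 against 255 CPM for Rab20 and 44.8 against 42.5 CPM for Rab5b. Macrophage-like values by name rest on A951 and A952 only. For the other GTPase genes at least 1 other class overlapped the leading one. In all, 21 of the 59 reached 50 CPM in a class of at least 50 cells and 15 stayed under 5 CPM in all 5, some of them resting on a single cell: 1 cell held 56.8% of the counts of Rab33a, 77.8% of those of Rab34 and 52.1% of those of Rab42. Rab39 also had 99.7% and Rab43 82.9% of its counts in fractional values, so their levels are uncertain. Among the members not described above, Rab2b, Rab4b, Rab6b, Rab23 and Rab40c reached 5.88 to 19.4 CPM in the highest of the 5 classes, and Rab17, Rab25, Rab39b and Rab40b stayed under 5 CPM.

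Beside the neutrophil-like results stand these measurements of the class. Of its 274 cells, 32 were named doublet by the authors, against 5 of 160 in B cell-like and 2 of 103 in T cell-like cells. B cell markers summed to 24.2 CPM there (7206 CPM in B cell-like cells), T cell markers to 27.0 CPM (6494 CPM in T cell-like cells) and macrophage markers to 290.4 CPM with 1 of 14 at 50 CPM or more (11964 CPM in macrophage-like cells). NK cell markers summed to 199.7 CPM with 1 of 10 at 50 CPM or more, cardiomyocyte markers to 138 CPM with 1 of 8, and monocyte markers to 3270 CPM with 6 of 14 at 50 CPM or more. The part of these markers in the levels was not tested. Without the cells named doublet, the counts in neutrophil-like cells were 11 RAB genes higher and 6 lower, against 10 and 6 with them. The share of all genes was not computed for that setting.

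Shares of cells with a count were compared after each cell was thinned to 25000 counts, which left out 0 cells. Rab20 was counted in 63.1% of neutrophil-like cells (exact interval 57.1% to 68.9%), 58.2% of monocyte-like and 65.4% of macrophage-like cells, but in 10.0% of B cell-like (5.82% to 15.7%) and 10.7% of T cell-like cells. Before thinning these were 67.9%, 72.0%, 88.5%, 13.8% and 21.4%. At equal depth the intervals of the 3 larger myeloid classes overlapped, while the level in CPM was higher in neutrophil-like cells.

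Rab32 was counted in 42.7% of neutrophil-like, 50.0% of monocyte-like and 53.8% of macrophage-like cells, against 3.75% of B cell-like and 4.85% of T cell-like cells. Rab7 was counted in 84.7% of neutrophil-like cells, 75.3% of monocyte-like and 86.5% of macrophage-like cells, and in 50.6% of B cell-like and 44.7% of T cell-like cells. Rab44, by contrast, was counted in 28.5% of neutrophil-like cells (23.2% to 34.2%) and 12.6% of monocyte-like cells (8.18% to 18.4%).

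Rab7b was counted in 84.6% of macrophage-like cells (71.9% to 93.1%), 51.6% of conventional dendritic-like cells, 39.6% of monocyte-like cells and 7.30% of neutrophil-like cells. Rab30 was counted in 20% of B cell-like cells (14.1% to 27.0%), against 2.92% of neutrophil-like and 2.75% of monocyte-like cells, where the gene was near 0. Before thinning, 51.6% of conventional dendritic-like cells had a Rab30 count, more than the 24.4% of B cell-like cells, at median depths of 256566 and 67466 counts, so the unthinned share went against the level and no order is read from it.

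**Figure D3:**
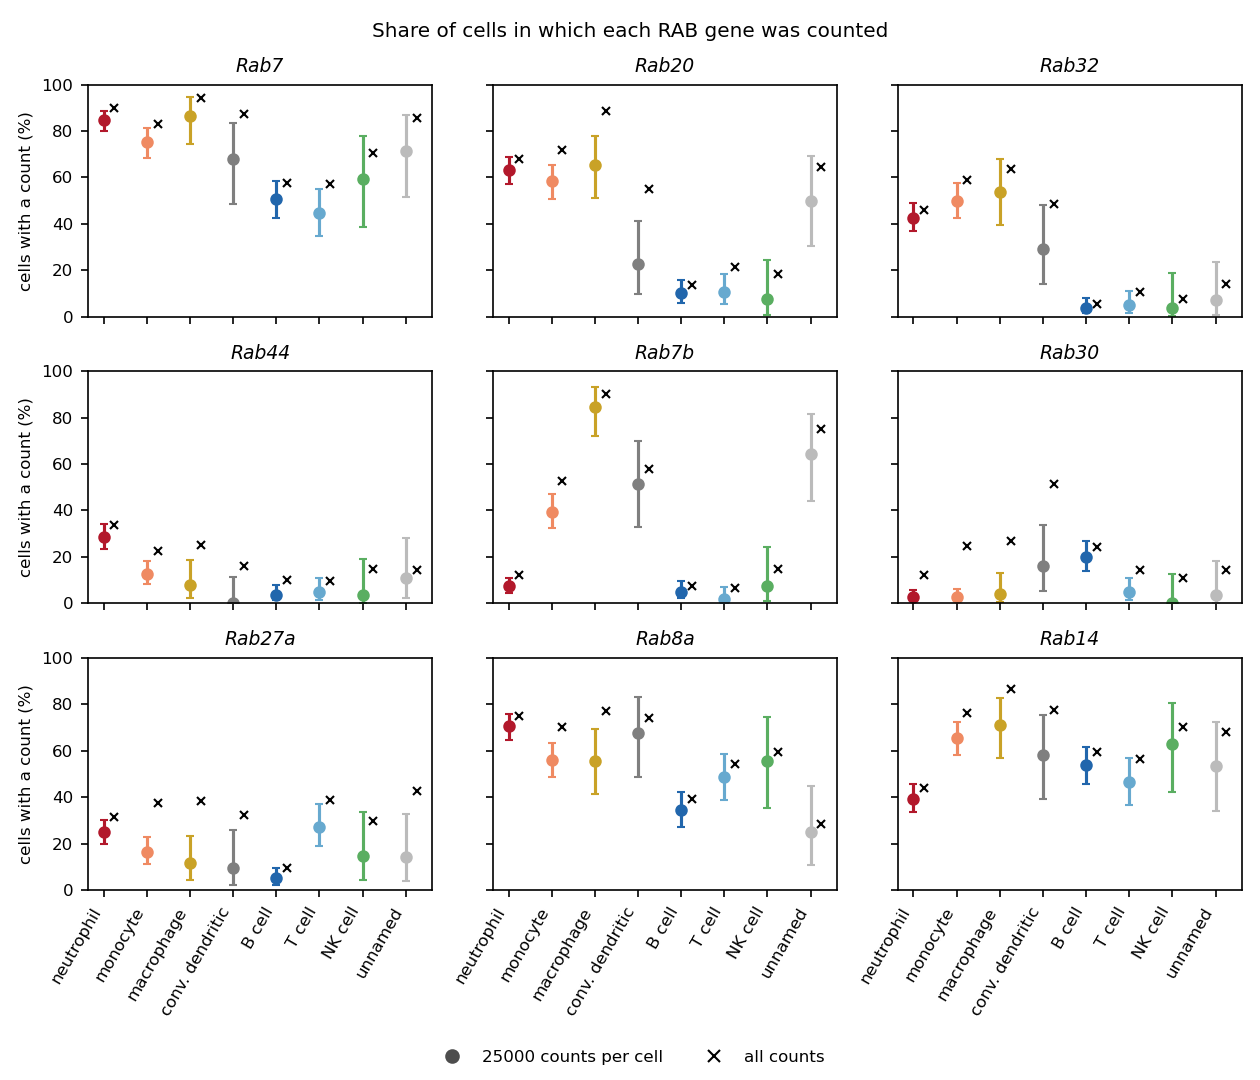
Percent of cells of each class with a count of 9 RAB genes, after thinning to 25000 counts per cell (dots with exact 95% intervals) and with all counts (crosses). Rab20 and Rab32 lie near the same height in the 3 larger myeloid classes and near the bottom in B cell-like and T cell-like cells, and Rab7b spans from 84.6% of macrophage-like to 1.94% of T cell-like cells.

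Rab11a, Rab20, Rab31, Rab32 and Rab44 were the members called higher in neutrophil-like cells and lower in both lymphocyte classes, comparisons that share cells. To let their start regions be compared, the stretch from 250 bases before to 50 after the gene start (RefSeq, build GRCm38.p6, read in the direction of the gene) is printed for the 4 that the sequence table held. Capitals mark the motifs searched on both strands: TGANTCA (AP-1), CACGTG (E-box), TTGCNNAA (C/EBP), GAGGAAG (an ETS site of the PU.1 type) and GGGNNTTCC (NF-kappaB). The files' own build is GRCm39, so these positions are not those of the files.
Rab20, chr8:11478591-11478890, minus strand: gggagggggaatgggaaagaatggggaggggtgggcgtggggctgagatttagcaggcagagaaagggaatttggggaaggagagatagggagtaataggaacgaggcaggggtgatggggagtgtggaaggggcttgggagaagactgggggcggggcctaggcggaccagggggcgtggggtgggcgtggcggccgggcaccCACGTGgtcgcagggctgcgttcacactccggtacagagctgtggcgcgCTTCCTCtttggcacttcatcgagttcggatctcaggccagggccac
Rab32, chr10:10558158-10558457, minus strand: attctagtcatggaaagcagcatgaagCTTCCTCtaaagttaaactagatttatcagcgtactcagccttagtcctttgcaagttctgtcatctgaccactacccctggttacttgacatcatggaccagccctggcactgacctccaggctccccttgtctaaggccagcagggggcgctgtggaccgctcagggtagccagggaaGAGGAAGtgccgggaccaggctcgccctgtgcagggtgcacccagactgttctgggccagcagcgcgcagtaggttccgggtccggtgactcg
Rab11a, chr9:64737707-64738006, minus strand: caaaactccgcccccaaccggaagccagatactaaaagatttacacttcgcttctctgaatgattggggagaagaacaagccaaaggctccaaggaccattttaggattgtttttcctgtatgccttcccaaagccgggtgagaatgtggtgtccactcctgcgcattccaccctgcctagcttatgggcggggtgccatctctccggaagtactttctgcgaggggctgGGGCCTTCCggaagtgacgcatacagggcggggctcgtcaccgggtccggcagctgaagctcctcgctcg
Rab31, chr17:65772703-65773002, minus strand: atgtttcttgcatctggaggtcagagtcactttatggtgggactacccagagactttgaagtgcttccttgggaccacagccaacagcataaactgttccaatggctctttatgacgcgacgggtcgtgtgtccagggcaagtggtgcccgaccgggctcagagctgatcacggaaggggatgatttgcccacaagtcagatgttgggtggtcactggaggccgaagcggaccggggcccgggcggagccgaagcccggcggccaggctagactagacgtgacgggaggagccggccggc
GAGGAAG, in either direction, stood in the windows of Rab20 and Rab32 and in 8 of the 48 GTPase genes in the table (16.7%), against 13.6% of all 32851 windows. The E-box was in the Rab20 window and in 5 of the 48 (10.4%, against 7.15% of all), and the NF-kappaB letters in the Rab11a window and in 4 of the 48 (8.33%, against 5.82%). AP-1 letters were in 2 of the 48 (4.17%, against 7.81%) and C/EBP letters in 3 (6.25%, against 10.8%). No marked motif was common to the 4 windows. The GC box GGGCGG, left in lower case, was in 34 of the 48 (70.8%, against 35.7% of all). A match of letters is a description and not a binding site.

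Neutrophil-like cells held 2 clusters, 97 cells with high Icam1, led also by Il23a and Gpr84, and 177 with low Icam1, led by Retnlg, Ngp and Camp. In the Icam1-high cluster 4 of the 36 RAB genes were at least 2-fold higher than in the Icam1-low cluster (Rab37, Rab5a, Rab5c and Rab9) and 3 lower (Rab24, Rab27a and Rab3d), while 23.0% of all genes tested were higher and 8.42% lower. The RAB genes thus had a smaller share of higher calls than all genes and about the same share of lower calls. NK cell markers summed to 601 CPM in Icam1-high cells, with 1 of 10 at 50 CPM or more and Ncr1 and Klre1 at 0, against 3.81 CPM in Icam1-low cells with 0 of 10. Monocyte markers summed to 4550.1 CPM in Icam1-high cells against 2645 CPM in Icam1-low cells, with 6 of 14 at 50 CPM or more in both, and neutrophil markers to 49058 against 135667 CPM, with 9 and 10 of 10. Of the 97 Icam1-high cells 13 were named doublet, against 19 of the 177 Icam1-low cells. The part of these cells and markers in the levels was not tested, and Rab37, one of the genes called, had its highest level in NK cell-like cells.

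Rab5c had 148 CPM in Icam1-high cells against 67.7 CPM in Icam1-low cells (2.18-fold, 1.98 to 2.39), with 125 against 86.0 CPM in cells named A951 and 111 against 82.3 CPM in those named A952. Rab27a had 33.3 CPM in Icam1-high cells against 74.6 CPM in Icam1-low cells (0.446, 0.382 to 0.519), with 27.2 against 71.2 CPM in cells named A951 and 58.3 against 67.5 CPM in those named A952. Both genes had the same direction in the cells of both names, but the gap of Rab5c was under 2-fold within either name, and that of Rab27a within the cells named A952.

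Rab20 had 499.6 CPM in Icam1-high cells against 283 CPM in Icam1-low cells (1.76-fold, 1.68 to 1.85), Rab32 had 300.1 against 153 CPM (1.96-fold, 1.84 to 2.09) and Rab44 102 against 54.8 CPM (1.86-fold, 1.67 to 2.07). These 3 were under the call, and each was higher in Icam1-high cells within the cells named A951 and within those named A952. Rab7 had 584 CPM in Icam1-high cells against 553 CPM in Icam1-low cells, a ratio of 1.06, so both clusters stood above the other 4 classes in Rab7.

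Monocyte-like cells also held 2 clusters, 80 cells with high Ace, the surface pattern of patrolling monocytes, and 102 with high Ly6c2, that of classical monocytes. In Ace-high cells 5 RAB genes were at least 2-fold higher than in Ly6c2-high cells (Rab10, Rab12, Rab18, Rab33b and Rab37) and 6 lower (Rab10os, Rab24, Rab30, Rab32, Rab3d and Rab7b), while 19.1% of all genes tested were higher and 11.7% lower. These are 13.9% and 16.7% of the 36, near the shares of all genes, so the counts are no result about the RAB genes.

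Rab7b had 13.4 CPM in Ace-high cells against 216 CPM in Ly6c2-high cells, a ratio of 0.0621 (0.0513 to 0.0745). Cells named A951, A952 and A965 had 14.6, 1.90 and 11.7 CPM in the Ace-high cluster and 202, 301 and 220.7 CPM in the Ly6c2-high cluster, with no overlap. Ace-high monocyte-like cells were thus near the neutrophil-like level of 11.6 CPM, and Ly6c2-high cells lay between these and the macrophage-like level of 325 CPM.

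Rab32 had 62.8 CPM in Ace-high cells against 135 CPM in Ly6c2-high cells (0.465, 0.424 to 0.509), and Rab7 157 against 272 CPM (0.580, 0.546 to 0.614, under the call). Both were lower in Ace-high cells for each of the 3 names. Rab10 ran the other way, with 230.2 CPM in Ace-high cells against 93.9 CPM in Ly6c2-high cells (2.45-fold, 2.31 to 2.60), and 228, 242 and 231 CPM against 75.7, 92.8 and 109 CPM by name. Rab10os, from the opposite strand of the same gene, was lower, at 36.0 against 75.4 CPM. Reads of these 2 genes cannot be told apart with certainty, and 34.3% of the Rab10 counts over all kept cells stood in fractional values. Median counts per cell differed between the clusters, 105902 in Ace-high and 227154 in Ly6c2-high cells, and the 10 blood vascular endothelial markers summed to 366 CPM in Ace-high cells, with 3 at 50 CPM or more, against 39.3 CPM in Ly6c2-high cells with 0. The part of depth and of these markers in the levels was not tested.

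**Figure D4:**
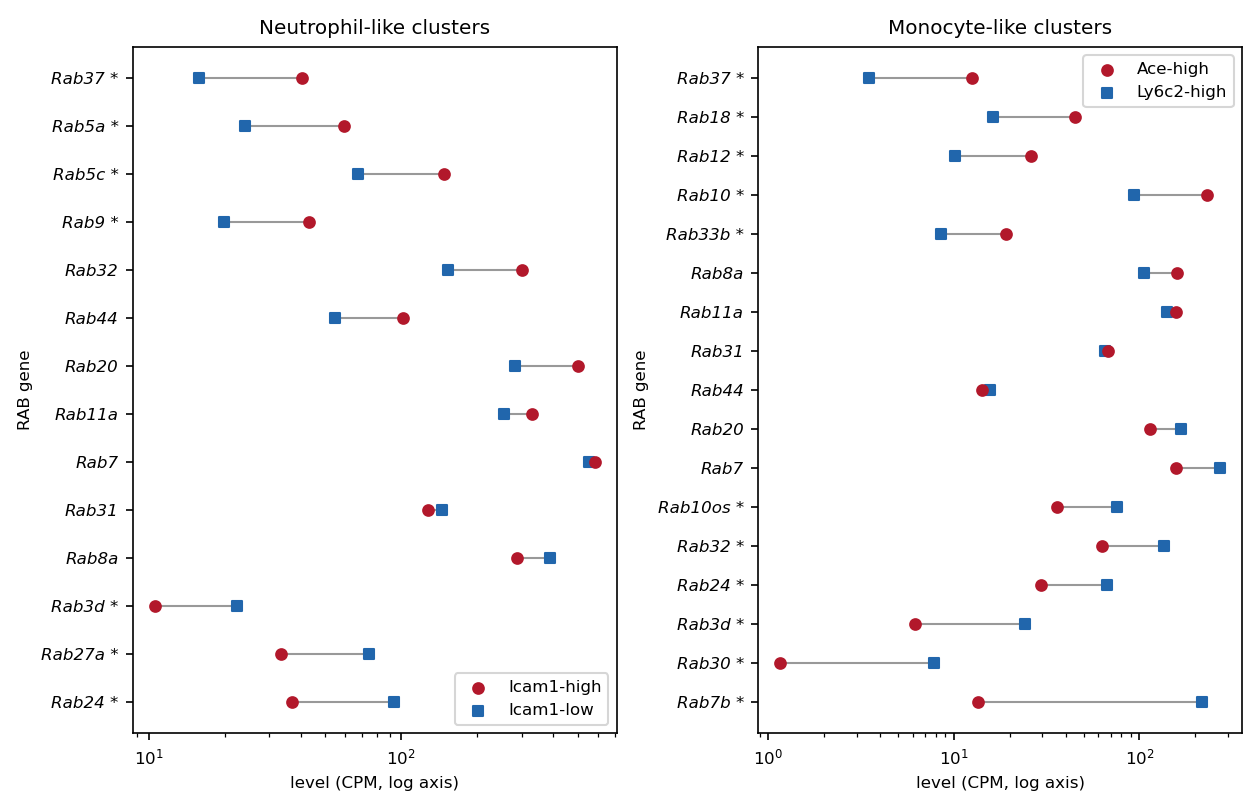
Levels in CPM on a log axis of RAB genes in the Icam1-high (red circles) and Icam1-low (blue squares) neutrophil-like clusters, left, and in the Ace-high (red circles) and Ly6c2-high (blue squares) monocyte-like clusters, right, for the members called between clusters (asterisk) and 7 members of the neutrophil-like results. The widest gap is that of Rab7b, at 13.4 CPM in Ace-high and 216 CPM in Ly6c2-high cells, while the points of Rab7 in the 2 neutrophil-like clusters nearly meet.

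The regulators of RAB proteins were taken from 5 lists with 115 genes, all of them in the table. Of the genes that control membrane attachment, 2 of 6 tested were higher in neutrophil-like cells and 3 lower, where 10.6% of all genes were higher and 40.0% lower. Rabac1, an acceptor of prenylated RAB proteins, had 418 CPM there against 186 CPM in all other cells (2.25-fold). Gdi2, a GDP dissociation inhibitor, had 83.7 CPM in neutrophil-like cells against 304 CPM in all other cells (0.275, 0.261 to 0.290), with 50.7 to 114 CPM by name. Rabac1 was thus higher and Gdi2 lower in neutrophil-like cells.

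Of 19 exchange factor genes tested, 3 were higher and 8 lower in neutrophil-like cells, 4 higher and 3 lower in macrophage-like cells, and 1 higher and 5 lower in B cell-like cells. The shares in neutrophil-like cells, 15.8% and 42.1%, were near the 10.6% and 40.0% of all genes, and those of all genes were 6.97% and 16.2% in macrophage-like and 16.7% and 22.4% in B cell-like cells. Rin3, an exchange factor for RAB5-type proteins, had 90.6 CPM in neutrophil-like cells against 30.4 CPM in all other cells (2.98-fold). Rabgef1, which loads RAB5, had 15.9 CPM in T cell-like cells against 89.5 CPM (0.178), and Dennd5b, of the DENN domain family, had 91.0 CPM in B cell-like cells against 29.4 CPM (3.09-fold). None of the 19 was higher and 5 were lower in monocyte-like cells, where 5.48% and 13.9% of all genes were.

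Of 22 genes for GTPase-activating proteins tested, 3 were higher and 7 lower in neutrophil-like cells, and 1 higher and 4 lower in monocyte-like cells. The shares, 13.6% and 31.8% in neutrophil-like cells and 4.55% and 18.2% in monocyte-like cells, were near those of all genes, 10.6% and 40.0% and 5.48% and 13.9%. Tbc1d4, known for acting on RAB10 in insulin-driven glucose transport, had 1.57 CPM in monocyte-like cells against 60.9 CPM in all other cells (0.0257, 0.0192 to 0.0338). It was also called lower in neutrophil-like (11.8 CPM), macrophage-like (4.87 CPM) and B cell-like cells (1.62 CPM), had 72.1 CPM in T cell-like cells and was among the leading genes of conventional dendritic-like cells. Rabgap1l had 12.2 CPM in monocyte-like cells against 64.2 CPM in all other cells. Rab3gap1 had 73.6 CPM in B cell-like cells against 13.1 CPM in all other cells (5.63-fold), with 45.3 to 168 CPM by name. Tbc1d23, a tether of endosome-derived vesicles at the trans-Golgi, had 58.1 CPM in neutrophil-like cells against 25.8 CPM.

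Among 20 effector genes of endosomes and lysosomes, 7 were higher and 2 lower in B cell-like cells, where 16.7% of all genes were higher and 22.4% lower, and 1 was higher and 8 lower in T cell-like cells, where these shares were 13% and 23.5%. Lrrk2, the kinase that phosphorylates RAB8A and RAB10, had 142 CPM in B cell-like cells against 22.6 CPM in all other cells (6.28-fold, 5.88 to 6.71), with 127 to 153 CPM by name. Rabep2, a RAB5 effector of the rabaptin type, had 77.8 against 12.6 CPM in the same class (6.17-fold), whereas Rab11fip1, a RAB11 effector, had 4.66 CPM there against 80.5 CPM (0.0578). Rabep1, the other rabaptin, had 9.84 CPM in neutrophil-like cells against 51.0 CPM. In B cell-like cells, 11 of the 20 effector genes were thus not called.

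Of 8 genes tested for the docking of RAB27-type granules, Stx11 and Snap23 were higher in neutrophil-like cells and Myo5a was lower, where 10.6% of all genes were higher and 40.0% lower. Stx11, a syntaxin whose loss impairs cytotoxic granule release in humans, had 103 CPM there against 29.5 CPM in all other cells (3.47-fold), with 91.2 to 107 CPM by name. Rab27a was higher in T cell-like cells. Of the 8 docking genes, 2 were higher there (Sytl3 and Unc13d) and 4 lower (Myo5a, Stx11, Vamp8 and Snap23). The shares of all genes in that class were 13% higher and 23.5% lower. The RAB27 effector gene Sytl3 had 96.9 CPM in T cell-like cells against 15.3 CPM (6.35-fold), with 44.3 to 125 CPM by name. Snap23, a SNARE of the plasma membrane, had 48.4 against 267 CPM in T cell-like cells, and Vamp8, a SNARE of granules and endosomes, 83.4 CPM in B cell-like cells against 342 CPM in all other cells.

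Conventional dendritic-like, NK cell-like and unnamed cells number 31, 27 and 28, and 1 cell can set a level there. Summed over the 59 GTPase genes, the level was 2052 CPM in conventional dendritic-like cells against 2751 CPM in all other cells, 2279 against 2697 CPM for NK cell-like cells and 3494.5 against 2675 CPM for unnamed cells. In unnamed cells Rab2a had 445 CPM against 200.3 CPM and Rab1a 328 against 115 CPM, and these cells had the highest median share of mitochondrial counts, 8.06% against 1.62% to 3.30% in the other classes. The part of that share in their RAB levels was not tested.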

How the data were processed

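One pool of sorted heart cells gave 1 transcriptome and 1 hashtag library, made with the BD Rhapsody system and the TAS-Seq workflow per the labels. The submitters' processing notes name cutadapt 4.1, STARsolo 2.7.10b, STAR, R 4.3.1 and GRCm39, with no role or order. The transcriptome table deposited by the authors holds estimated counts, not normalized, of which 69.8% of the values above 0 are whole. The hashtag table, also deposited, has 1000000 barcodes with counts as whole numbers. The sources used here do not say if molecules or reads were counted; 46.7% of the RAB GTPase values above 0 are 10 or more, with a median of 7. If reads were counted, the intervals are too narrow.

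Cells with at least 500 counts, 200 genes and at most 25% mitochondrial counts were kept; 21 were left out, and cells named doublet stayed in; no doublet caller was run. Counts were scaled to 10000 per cell and log-transformed. With scanpy 1.11.5, 2000 variable genes (RAB and pathway genes left out), 30 components, 15 neighbours and Leiden clustering (resolution 1, seed 0) were used. Names were given where at least 3 markers of a type reached 50 CPM and 2 times all other cells. Estimated counts were summed unrounded per class, with exact Poisson intervals. Shares and ratios have Clopper-Pearson intervals, and all intervals cover counting error only. The ratio, its interval and the call were tested on simulated Poisson counts with known ratios. Those counts were whole and held no spread between cells, so only the arithmetic was checked. Alternatives changed the filters, clustering, cell weights, added CPM, comparison cells and counts, or left out doublets, the largest cell or a hashtag name. Other software was Python 3.11.15, anndata 0.12.19, numpy 2.4.6, pandas 2.3.3, scipy 1.17.1, igraph 0.11.9 and matplotlib 3.10.9. The members, roles, pathway lists and markers were chosen with earlier results of these data known. Genes named in full were those of at least 50 CPM in a class of at least 50 cells, up to 4 per role or pathway list by largest ratio, and others are given by range, or named for a call or a small class after their values were seen. Promoter windows came from RefSeq and were matched by symbol for 48 of 59 genes. One gene of the pathway lists is not reported here.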

Additional observations from a re-analysis of the deposited data

How the results depend on the processing

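For each of the 18 fully described RAB genes, the ratio in the class where it departed most was followed under 16 alternatives. The 4 that left out the cells of a hashtag name were chosen after seeing the data. All 18 ratios kept their sign. None was in monocyte-like or macrophage-like cells. Those of Rab7, Rab11a, Rab20, Rab31 and Rab32 were in lymphocyte classes, so their neutrophil-like ratios were not followed, nor the macrophage-like ratio of Rab7b. Leiden resolution 0.5 and clustering seed 1 left the numbers of neutrophil-like, B cell-like and T cell-like cells unchanged, so they test these ratios little. Of 14 that were called, Rab11a and Rab1a in T cell-like cells were lost with each cell weighted alike, and Rab5b in neutrophil-like cells with 10 CPM added (log2 ratio 0.97). Counts of called members moved by more than 1.5 times as follows. The shares of all genes were not computed for these settings, so the counts are no result about the RAB genes. Testing only genes of at least 50 CPM (18 members) gave 6 higher and 1 lower in neutrophil-like cells, 0 and 0 in monocyte-like, 1 and 0 in macrophage-like, 0 and 7 in B cell-like and 0 and 7 in T cell-like cells. Testing every gene above 0 (62 members) gave 11 lower in neutrophil-like, 2 higher and 6 lower in monocyte-like, 5 and 9 in macrophage-like, 4 higher in B cell-like and 10 higher in T cell-like cells. Leiden resolution 0.5, which gave 80 monocyte-like and 182 macrophage-like cells, gave 2 higher and 4 lower in monocyte-like cells. Each cell weighted alike gave 4 higher in monocyte-like, 5 in macrophage-like and 0 in T cell-like cells. Adding 10 CPM gave 0 higher and 0 lower in monocyte-like, 3 lower in macrophage-like and 1 higher in T cell-like cells. Against the mean of the other classes, 0 were higher in monocyte-like, 5 in macrophage-like and 1 in T cell-like cells. Without the cell with the largest count, 1 was higher in T cell-like cells. Leaving out cells named A951 or A965 gave 1 lower in monocyte-like cells, and leaving out A965 also 1 higher in T cell-like cells. Among ratios, Rab32 in B cell-like cells without the largest cell, and Rab32 and Rab8b there without cells named A965 (Rab8b log2 ratio -2.66), moved by more than 1.5 times, as did Rab7b in T cell-like cells with each cell weighted alike, Rab30 in B cell-like cells against the mean of the other classes (log2 ratio 4.70) and Rab30, Rab31, Rab32, Rab44 and Rab7b with 10 CPM added. Apart from the construction of these settings, the causes were not tested. No paired analysis was possible because there is 1 library. Levels rest on 1 pooled library, so no spread between animals is known, and classes of 27 to 31 cells can follow a single cell.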
